A study of Mus musculus with 91 samples.

Results

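Among 91 single cells of the mouse caudal lateral epiblast, 17 epiblast-like cells with at least 1 read of Cldn6 (Cldn6-positive) were compared with 26 epiblast-like cells without a read of it (Cldn6-negative). A cell was taken as epiblast-like where the level of Nkx1-2, a homeobox gene of the caudal epiblast, was above that of Aldh1a2, which makes retinoic acid in the mesoderm. This held for 43 of the 91 cells, and the other 48 are called mesoderm-like. Both Cldn6 groups came from outbred MF1 embryos at the early head fold stage, about embryonic day 8.0, with no mutation or treatment. Epiblast pieces of several embryos were pooled and dissociated, and FACS put 1 cell in each well of a plate for Smart-seq2, a full-length cDNA method without molecular identifiers. No embryo is named for any cell, so that the cells of each group are 1 sample, no test was made, and an SD here is a spread over cells that says nothing of embryos. Levels are counts per 1000000 counts of the same cell (CPM).

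Claudins are membrane proteins that form the strands of tight junctions, the belts that seal an epithelium near its apical side and keep its apical and basal membranes apart. Each claudin pairs with others across neighbouring cells and is tied to the actin cortex by zonula occludens proteins. Claudin 6, the product of Cldn6, is known mainly from embryonic epithelia and pluripotent stem cells and is little used in adult tissues. The caudal lateral epiblast is an epithelium that holds axial progenitors, which give rise to neural tube and, by leaving the epithelium through the primitive streak, to mesoderm. Cells that leave take up the program of Tbx6 and Hes7, while T is also present in axial progenitors still in the epiblast. Hox genes of rising paralog number are turned on as the trunk is laid down.

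Cldn6-positive cells kept the levels of the main epithelial adhesion genes found in Cldn6-negative cells, while they held fewer transcripts of streak, caudal and trunk Hox genes. Cdh1 and Epcam were under 2-fold by the ratio of their means, while T and Hoxb7 were past 2-fold by the same measure. The groups overlapped for each of these genes. T averaged 89.9 ± 221 CPM in Cldn6-positive cells and 318 ± 416 CPM in Cldn6-negative cells (SD, n = 17 and 26 cells), and Hoxb7 was read in 1 of 17 Cldn6-positive cells against 15 of 26 Cldn6-negative cells. Part of this pattern moved with the position of the cells on the plate. In plate rows G and H, where the groups are of like size, the log2 ratio of T was 0.19. Of the 8 measured streak genes, 4 were 2-fold lower in these rows. No gene of the caudal progenitor list was 2-fold lower there, whereas 5 Hox genes and 12.2% of all genes were. Of these 5 Hox genes, Hoxa3 and Hoxb3 were each read there in 0 of 6 positive and 1 of 7 negative cells. Hoxb8 was read there in 2 of 6 and 2 of 7, and Hoxb7 in 1 of 6 and 4 of 7. Hoxa5 was read there in 4 of 6 and 5 of 7, with its maximum of 157 CPM in the negative cell H5. The summed Hox level in these rows had a median of 261 CPM in positive and 277 CPM in negative cells.

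Cldn6 (ENSMUSG00000023906) lies on chromosome 17 at 23679249 to 23682446 on the plus strand of GRCm38. Cldn9, a claudin gene that begins close to its end on the other strand (23682584 to 23684026), was not read in these 43 cells. The 2 groups were chosen by the Cldn6 reads themselves, so the Cldn6 values are a description only. The 17 positive cells had 1 to 670 reads of Cldn6 with a median of 114, or 0.363 to 303 CPM with a median of 51.5 CPM. Of these cells 12 lay between 20 and 100 CPM. Just inside the threshold stood cell G9 with 1 read, A10 with 6 reads and C9 with 21 reads, and the next cell, C1, had 81 reads. Just outside it the 26 negative cells had 0 reads, which at their depths allows up to 0.764 to 2.25 CPM in each. Cell D7, with 670 reads, held 25.4% of the 2634 reads of Cldn6, and without it the mean of the positive cells was 52.4 ± 36.6 CPM (SD, n = 16) in place of 67.2 ± 70.4 CPM (SD, n = 17).

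A Cldn6 read was found in 39.5% of epiblast-like cells (17 of 43, exact 95% interval 24.98 to 55.6%). Among the mesoderm-like cells 0 of 48 had one, which allows a share of up to 7.40%. These limits cover counting error only. With a minimum of 5 reads, or with every cell thinned to 500000 counts, 16 of 43 epiblast-like cells were positive. The depths of the groups overlapped: the positive cells held 1260653 to 3510463 counts with a median of 2645381, against 1333149 to 3927737 counts with a median of 2319946 in negative cells. The median number of genes with a read was 8172 in positive cells and 8184.5 in negative cells. The share of mitochondrial counts was 2.41 to 7.19% with a median of 4.21% in positive cells, and 2.15 to 6.001% with a median of 3.36% in negative cells; its part in the results was not tested.

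**Figure D1:**
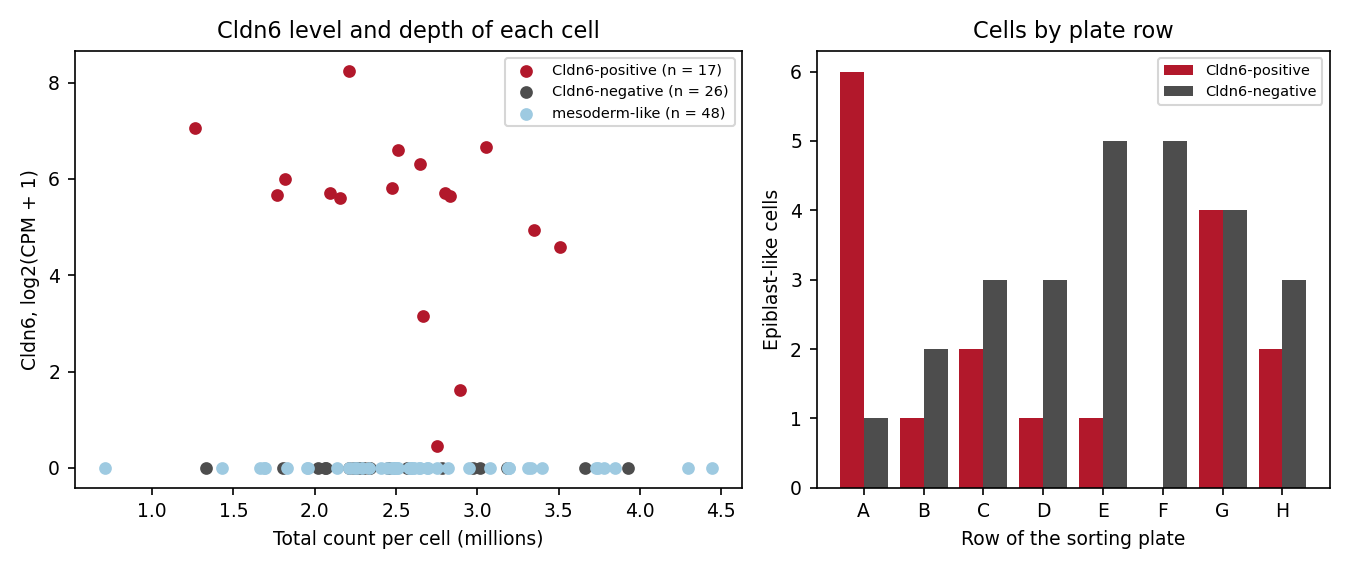
Left, the level of Cldn6 in each cell, log2(CPM + 1), against its total count, for 17 Cldn6-positive, 26 Cldn6-negative and 48 mesoderm-like cells. Right, the number of Cldn6-positive and Cldn6-negative cells in each row of the plate, with 6 positive cells against 1 negative cell in row A and 0 against 5 in row F.

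The groups were not spread evenly over the plate. Row A held 6 Cldn6-positive cells and 1 Cldn6-negative cell, rows B to F held 5 positive and 18 negative cells, and rows G and H held 6 positive and 7 negative cells. The labels give the well of each cell and not what a row stands for, so that a row is not known to be a batch or a litter. The median Cldn6 level of positive cells was 53.5 CPM in row A, 51.5 CPM in rows B to F and 48.8 CPM in rows G and H. Row A has too few negative cells for a value, and for many of the genes below the log2 ratio is also given within rows B to F and within rows G and H. Most of these genes were named for their difference over all these same cells. For them a like sign within the rows is no separate support.

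Most cells of both groups carried the markers of the class they were named for. Nkx1-2, which the rule used, had 356 to 1482 CPM with a median of 870 CPM in positive cells and 425 to 2167 CPM with a median of 937 CPM in negative cells. Cdh1 (E-cadherin), which the rule did not use, was read in 17 of 17 positive cells and 25 of 26 negative cells. Pou5f1, a pluripotency factor still present in the late epiblast, was read in every cell of both groups. Epcam, an epithelial gene, was only 0.719 CPM in the negative cell B10 and 0.764 CPM in the negative cell G12. Aldh1a2, the other gene of the rule, was at most 1.86 CPM in positive cells, and in negative cells it was high in B10 alone. That cell was nearest to the class threshold with 688 CPM of Nkx1-2 and 570 CPM of Aldh1a2, and outside it the mesoderm-like cell G3 had 164 CPM and 301 CPM. B10 also held 1219 CPM of T and 499 CPM of Mixl1.

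Of 11290 genes with a read in at least 10 of the 43 cells, 463 (4.1%) were at least 2-fold higher in Cldn6-positive cells, Cldn6 among them, and 767 (6.79%) were at least 2-fold lower. A gene was called by the ratio of its mean CPM in positive over negative cells after 1 CPM was added to both, which understates the change of low genes. The median log2 ratio of all these genes was -0.05. With each of the 43 cells left out in turn, 183 genes stayed at least 2-fold higher and 432 stayed at least 2-fold lower every time. Within rows B to F, 8.03% of all genes were at least 2-fold higher and 16.7% at least 2-fold lower in positive cells, and within rows G and H 13% were higher and 12.2% lower. The calls are a description of these 2 sets of cells. The shares of 4.1% higher and 6.79% lower are the background for the counts of each gene list given below over all cells.

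The other claudins were sparse. Apart from Cldn6, 3 claudin genes passed the filter and 2 more were read in fewer cells, while 19 of the 25 claudin genes of the count table had no read. Cldn5, a claudin best known from endothelium, had 0 to 167 CPM with a median of 10.5 CPM in positive cells, where 9 of 17 had a read. In negative cells it had 0 to 103 CPM with a median of 0, and 6 of 26 had a read. The groups overlapped, and the log2 ratio of Cldn5 was 1.19. This ratio was 0.79 without cell H8 and 0.92 without cell G5, and it was -0.41 in rows B to F against 2.31 in rows G and H. Cldn12 averaged 95.9 ± 122 CPM in positive cells and 83.1 ± 132 CPM in negative cells (SD, n = 17 and 26). Its log2 ratio of 0.20 is under 2-fold, with overlapping groups. Cldn3 was read in 3 of 17 positive and 7 of 26 negative cells with a log2 ratio of -0.73, which was -1.50 without cell D7 and -1.39 without cell G5. Cldn4 was read in 2 of 17 positive cells and 0 of 26 negative cells, which allows a share of up to 13.2%, and Cldn7 in 2 of 17 and 6 of 26.

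The proteins that claudins work with were mostly at like levels. Of 16 measured genes of the tight junction list, 1 (Arhgef2) was higher and 2 (F11r and Tjap1) were lower, against 4.1% and 6.79% of all genes. The median log2 ratio of the list was -0.06 against -0.05 for all genes. Tjp1, the zonula occludens scaffold, averaged 46.3 ± 59.3 CPM in positive cells and 45.7 ± 70.5 CPM in negative cells. Ocln (occludin), another strand protein, averaged 17.6 ± 49.4 CPM in positive cells and 9.66 ± 27.8 CPM in negative cells, and was read in 4 of 17 and 8 of 26 cells. Its log2 ratio of 0.80 lay between -0.26 and 1.47 with single cells left out. F11r encodes JAM-A, an immunoglobulin-type adhesion protein of the tight junction. It had 0 to 182 CPM with a median of 32.96 CPM in positive cells, and 0 to 439 CPM with a median of 103 CPM in negative cells. Only 3 of 17 positive cells were above the median of the negative cells. The log2 ratio of F11r was -1.19 over all cells, -1.20 in rows B to F and -1.14 in rows G and H. F11r was named for being lower over these same cells, so its sign within the rows was largely fixed by the choice.

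Tjap1, a tight junction associated protein, had a median of 0 CPM in positive cells and 73.5 CPM in negative cells, with maxima of 192 CPM in positive and 198 CPM in negative cells. A read was found in 8 of 17 positive and 22 of 26 negative cells, and the log2 ratio was -1.40, with -2.55 in rows B to F and -1.01 in rows G and H. Arhgef2 is an exchange factor for the GTPase RhoA that is held at tight junctions in cultured epithelia. It had 0 to 127 CPM with a median of 26.8 CPM in positive cells, and 0 to 110 CPM with a median of 3.95 CPM in negative cells. Its log2 ratio of 1.303 was 2.92 in rows G and H and 0.02 in rows B to F, so the difference stood in one set of rows and not in the other.

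At the adherens junction and the desmosome, 2 of 13 measured genes were higher (Cdh3 and Pkp2) and 0 were lower, against 4.1% and 6.79% of all genes. The median log2 ratio of the list was 0.15. Cdh1 averaged 290 ± 167 CPM in positive cells and 266 ± 184 CPM in negative cells, a log2 ratio of 0.13. Epcam, an epithelial adhesion protein that binds claudins, averaged 289 ± 135 CPM in positive cells and 261 ± 193 CPM in negative cells, a log2 ratio of 0.15. Cdh3 (P-cadherin) was low: it averaged 12.04 ± 27.5 CPM in positive cells and 1.84 ± 6.71 CPM in negative cells, with a read in 7 of 17 and 8 of 26. Its log2 ratio of 2.20 ranged from 1.56 to 3.07 with single cells left out, and was 2.46 in rows B to F and 3.02 in rows G and H. Pkp2, a desmosomal plaque protein, stood at the threshold with a log2 ratio of 1.00 and dropped below it when any of 27 of the cells was left out.

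The membrane protease matriptase, encoded by St14, and its inhibitor, encoded by Spint1, act together in epithelia, where matriptase activity affects claudins. St14 was read in 8 of 17 positive cells and 3 of 26 negative cells, with means of 20.6 ± 26.95 CPM in positive and 5.01 ± 18.7 CPM in negative cells and a log2 ratio of 1.85. Spint1 was read in 10 of 17 positive and 19 of 26 negative cells, with means of 26.6 ± 37.2 CPM in positive and 63.998 ± 67.6 CPM in negative cells and a log2 ratio of -1.24. The protease was thus at least 2-fold higher and its inhibitor at least 2-fold lower in positive cells, with overlapping groups for both genes. In rows B to F the log2 ratios were 1.27 for St14 and -1.20 for Spint1, and in rows G and H they were 1.36 and -0.98. The St14 value in rows B to F rested on E1, the only positive cell with a read there. The other members of this list of 5 were under 2-fold, where 4.1% of all genes were higher and 6.79% lower.

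Other epithelial groups differed in few members, where 4.1% of all genes were higher and 6.79% lower. Of 16 polarity genes, 1 was higher (Pard6g, of the apical PAR complex) and 1 was lower (Llgl1, a basolateral polarity protein), both within 0.03 log2 units of the threshold. Of 7 keratin and epithelial regulator genes, 2 were lower (Krt18 and Rab25) with a median log2 ratio of -0.78, and Krt8, the partner of keratin 18, had a log2 ratio of -0.997. The call for Krt18 was lost when any of 4 cells was left out, and its log2 ratio was 0.08 in rows G and H, while Rab25 lost its call without the negative cell E4 (-0.90). Of 17 basement membrane and integrin genes, 2 were lower, Nid2 and Itga5, a receptor subunit for fibronectin. For Nid2 the log2 ratio was -1.08 in rows B to F and -0.66 in rows G and H. The exons of Nid2 overlap by 437 bases those of Rtraf on the other strand, and since Smart-seq2 does not mark strand their reads cannot be told apart. Fn1 (fibronectin) was the only one of 8 mesenchymal genes called, with means of 25.5 ± 41.4 CPM in positive cells and 64.2 ± 77.8 CPM in negative cells and a log2 ratio of -1.297, which was -1.63 in rows B to F and -0.83 in rows G and H. Vim (vimentin) averaged 49.02 ± 37.7 CPM in positive cells and 52.4 ± 49.7 CPM in negative cells. Cdh2 (N-cadherin) was read in 11 of 17 positive and 18 of 26 negative cells with a log2 ratio of -0.79, and at least 5 reads of it were in 6 of 17 and 15 of 26. Without the positive cell A9, H8 or G9 its log2 ratio was past 2-fold (-1.01, -1.07 and -1.19). Snai1, which represses Cdh1, was read in 3 of 17 positive and 4 of 26 negative cells.

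**Figure D2:**
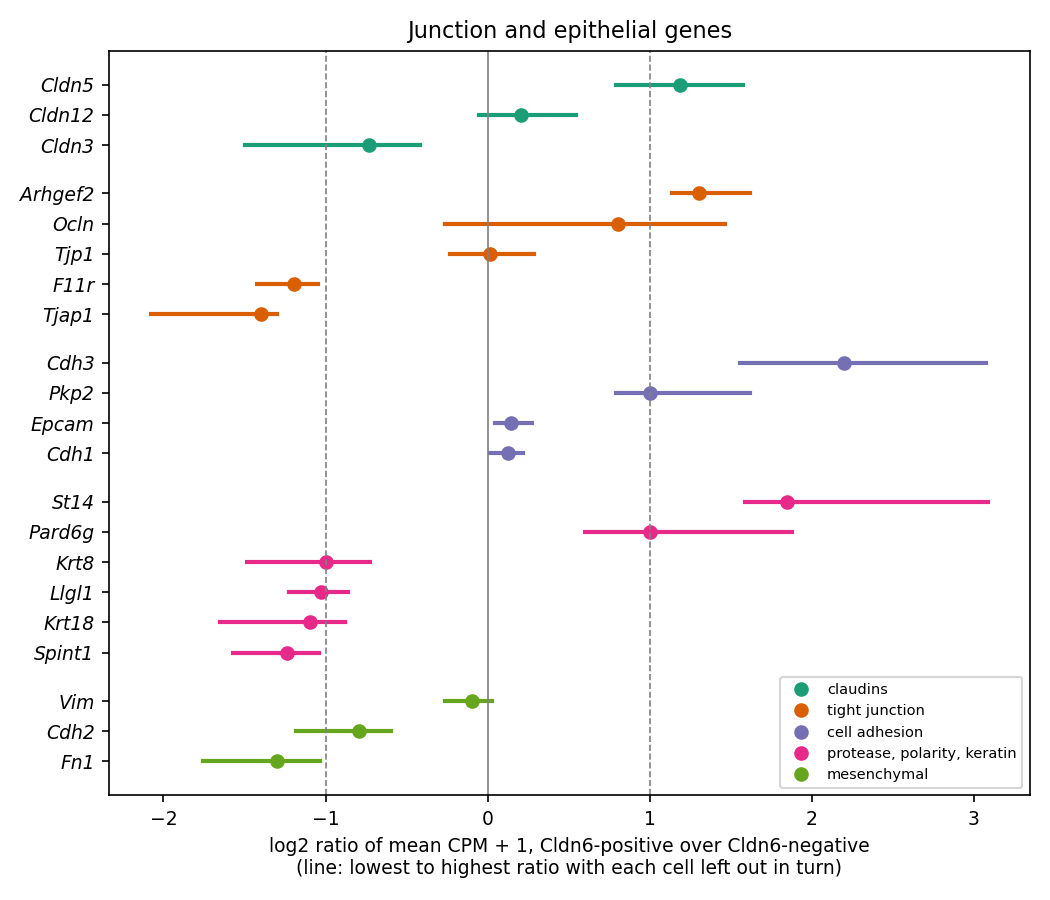
Log2 ratio of mean CPM plus 1 in 17 Cldn6-positive over 26 Cldn6-negative cells for junction, epithelial and mesenchymal genes (points), with lines from the lowest to the highest ratio when each cell was left out in turn and dashed lines at 2-fold. Cdh1, Epcam, Tjp1 and Vim lie near 0, and Arhgef2, F11r, Tjap1, Cdh3, St14, Spint1 and Fn1 stay past 2-fold over their whole lines.

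The genes of the primitive streak and the nascent mesoderm had the lowest median ratio of the gene lists. Of 8 measured members, 0 were higher and 7 were lower (T, Tbx6, Hes7, Mixl1, Dll1, Rspo3 and Pcdh19), with a median log2 ratio of -3.45, where 6.79% of all genes were lower. Each of the 7 had most of its cells with a read among the negative cells and so passed the filter largely through the group in which it was higher, and the count and the median lend no support by themselves. With a read required in 20 of the 43 cells, T alone of the list was left and was 2-fold lower, where 3.7% of all genes were. The summed level of the list had a median of 16.7 CPM and a range of 0 to 1004 CPM in positive cells, and a median of 227 CPM and a range of 0 to 2493 CPM in negative cells. The ranges overlap, with a lowest value of 0 in both groups.

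T (brachyury), the T-box factor of the streak and of axial progenitors, had 0 to 911 CPM with a median of 0.378 CPM in positive cells and 0 to 1536 CPM with a median of 144 CPM in negative cells. At least 10 CPM of T was present in 7 of 17 positive cells and 21 of 26 negative cells. The log2 ratio of T was -1.81, and without cell H9, the positive cell with 911 CPM, it was -3.01 and the mean of the positive cells was 38.6 ± 66.03 CPM. T together with Sox2, a neural and epiblast factor, was read in 7 of 17 positive cells and 18 of 26 negative cells, and with at least 5 reads of each gene in 5 of 17 and 11 of 26. At least 5 reads of Sox2 were in 9 of 17 positive and 12 of 26 negative cells. Sox2 alone averaged 20.4 ± 29.01 CPM in positive cells and 20.1 ± 30.5 CPM in negative cells.

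Tbx6, which commits progenitors to paraxial mesoderm, was read in 2 of 17 positive cells with a maximum of 12.3 CPM, and in 12 of 26 negative cells with a maximum of 217 CPM. Hes7, the oscillating repressor of the segmentation clock, had 0 to 22.4 CPM with a median of 0 in positive cells and 0 to 180 CPM with a median of 21.6 CPM in negative cells. A total of 13 negative cells were above every positive cell for Hes7. The log2 ratio of Hes7 was -3.76 over all cells, -6.03 in rows B to F and -2.10 in rows G and H. Its exons overlap by 234 bases those of 9130213A22Rik on the other strand, which was read in 5 of the 43 cells.

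Rspo3, a secreted enhancer of Wnt signalling, was at most 0.906 CPM in positive cells and reached 184 CPM in negative cells, with a read in 4 of 17 positive and 12 of 26 negative cells. Pcdh19, a protocadherin of early paraxial mesoderm, was read in 2 of 17 positive and 8 of 26 negative cells, and Mixl1, a homeobox gene of the streak, in 5 of 17 and 8 of 26. Dll1, a Notch ligand, was read in 4 of 17 and 7 of 26 cells and differed through single cells: its log2 ratio of -2.90 was -1.69 without the negative cell F3 and -4.50 without the positive cell H8. In rows G and H the log2 ratio of Dll1 was 3.15, with a read in 1 of 6 positive and 0 of 7 negative cells, and 4 of the 8 streak genes were 2-fold lower. In rows B to F, 7 were. Without cells B10 and C10, the negative cells highest in Aldh1a2 and in Msgn1, 7 of the 8 stayed 2-fold lower. Msgn1, a target of Tbx6 that was too sparse for the filter, was read in 0 of 17 positive cells, which allows a share of up to 19.5%, and in 5 of 26 negative cells.

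Of 17 measured genes of the caudal progenitor list, 1 was higher (Tal2) and 7 were lower (T, Wnt3a, Fgf8, Cyp26a1, Cdx4, Sp5 and Trh). The median log2 ratio was -0.65. For all genes the shares were 4.1% higher and 6.79% lower. T is also in the streak list. Fgf8, Cdx4 and Cyp26a1 were read in 4, 5 and 3 positive cells against 17, 14 and 8 negative cells. They passed the filter largely through the group in which they were higher. The count and the median thus lend no support by themselves. With a read required in 20 cells, 4 of the 14 genes left were 2-fold lower, where 3.7% of all genes were. The summed level of the list was 1359 to 5310 CPM with a median of 3554 CPM in positive cells, and 2016 to 7686 CPM with a median of 4824 CPM in negative cells. Nkx1-2 is in this list as well as in the rule. The genes that did not pass 2-fold included Wnt8a, with 115 ± 117 CPM in positive cells and 121 ± 93.7 CPM in negative cells, and Sp8, a zinc finger factor, with 829 ± 393 CPM in positive cells and 754 ± 352 CPM in negative cells.

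The ligands differed unequally. Wnt3a, which with T maintains axial progenitors, had a median of 0 and a maximum of 56.8 CPM in positive cells, and a median of 0.41 CPM and a maximum of 246 CPM in negative cells. For Wnt3a the log2 ratio was -2.48, and -3.21 without cell H9. Fgf8 was read in 4 of 17 positive cells with a maximum of 30.8 CPM, and in 17 of 26 negative cells with a maximum of 98.9 CPM, a log2 ratio of -1.78, with -4.45 in rows B to F and -0.59 in rows G and H. Among responses to these ligands, Sp5, a Wnt target, averaged 23.9 ± 27.3 CPM in positive cells and 57.9 ± 60.8 CPM in negative cells, and its log2 ratio was -2.56 in rows B to F and -0.08 in rows G and H. Etv4, an ETS factor induced by FGF, averaged 28.8 ± 36.2 CPM in positive cells and 89.96 ± 57.2 CPM in negative cells, and only 1 of 17 positive cells was above the median of the negative cells. For Etv4 the log2 ratio was -1.61, with -1.49 in rows B to F and -0.31 in rows G and H.

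Of all genes, 4.1% were higher and 6.79% lower. Of 13 FGF pathway genes, 1 was higher (the receptor Fgfr2) and 4 were lower (Fgf8, Fgf15, Etv4 and Spry4), with a median log2 ratio of -0.39. Of 19 Wnt pathway genes, 0 were higher and 3 were lower (Wnt3a, Rspo3 and Sp5), all of which are in the lists above, and the median was -0.27. Spry4, a feedback inhibitor of FGF signalling, had a log2 ratio of -1.16, which was -0.84 without the negative cell H1. The ratio of Fgfr2 was 1.18 over all cells, under 2-fold without any 1 of 3 positive cells and -3.63 in rows G and H, and its exons overlap those of Ctbp2, which was read in all 43 cells.

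The caudal homeobox genes differed in degree. Cdx1 had 113 to 1666 CPM with a median of 870 CPM in positive cells, and 317 to 2645 CPM with a median of 1670 CPM in negative cells. No positive cell was above the median of the negative cells, although the log2 ratio of -0.83 is under 2-fold. Within rows G and H the means were 1221 CPM in positive and 1195 CPM in negative cells, while within rows B to F they were 496 CPM in positive and 1617 CPM in negative cells. Cdx2 averaged 43.96 ± 44.3 CPM in positive cells and 69.6 ± 63.3 CPM in negative cells, which is under 2-fold, with overlapping groups. Cdx4 was read in 5 of 17 positive and 14 of 26 negative cells, with medians of 0 CPM in positive and 35.9 CPM in negative cells and a log2 ratio of -1.51, or -2.34 without cell G9.

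Trh, the precursor of thyrotropin-releasing hormone, had 0 to 273 CPM with a median of 38.7 CPM in positive cells and 0 to 881 CPM with a median of 101 CPM in negative cells, a log2 ratio of -1.46. Tal2, a basic helix-loop-helix factor, went the other way, with 0 to 389 CPM and a median of 87.5 CPM in positive cells against 0 to 142 CPM and a median of 0 in negative cells. Its log2 ratio was 1.75 over all cells, 2.14 in rows B to F and 0.67 in rows G and H, and 6 positive cells were above every negative cell. Evx1, a homeobox gene of the streak under the filter, was read in 0 of 17 positive cells, which allows a share of up to 19.5%, and in 8 of 26 negative cells with up to 84.8 CPM. Its exons overlap by 73 bases those of Evx1os on the other strand.

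These caudal differences were not the same in both sets of plate rows. In rows B to F, with 5 positive and 18 negative cells, 11 of the 17 caudal progenitor genes and 16.7% of all genes were 2-fold lower, with log2 ratios of -3.03 for T, -5.03 for Wnt3a, -6.82 for Cdx4 and -4.05 for Trh. In rows G and H, with 6 and 7 cells, 0 of the 17 and 12.2% of all genes were, with log2 ratios of 0.19 for T, 0.18 for Wnt3a, 0.24 for Cdx4 and 1.02 for Trh. Without row A the count was 7, as over all cells. Both groups were present in each set of rows, so these are differences within rows that were unlike between the sets, and whether the sets differ beyond the spread over cells was not tested.

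**Figure D3:**
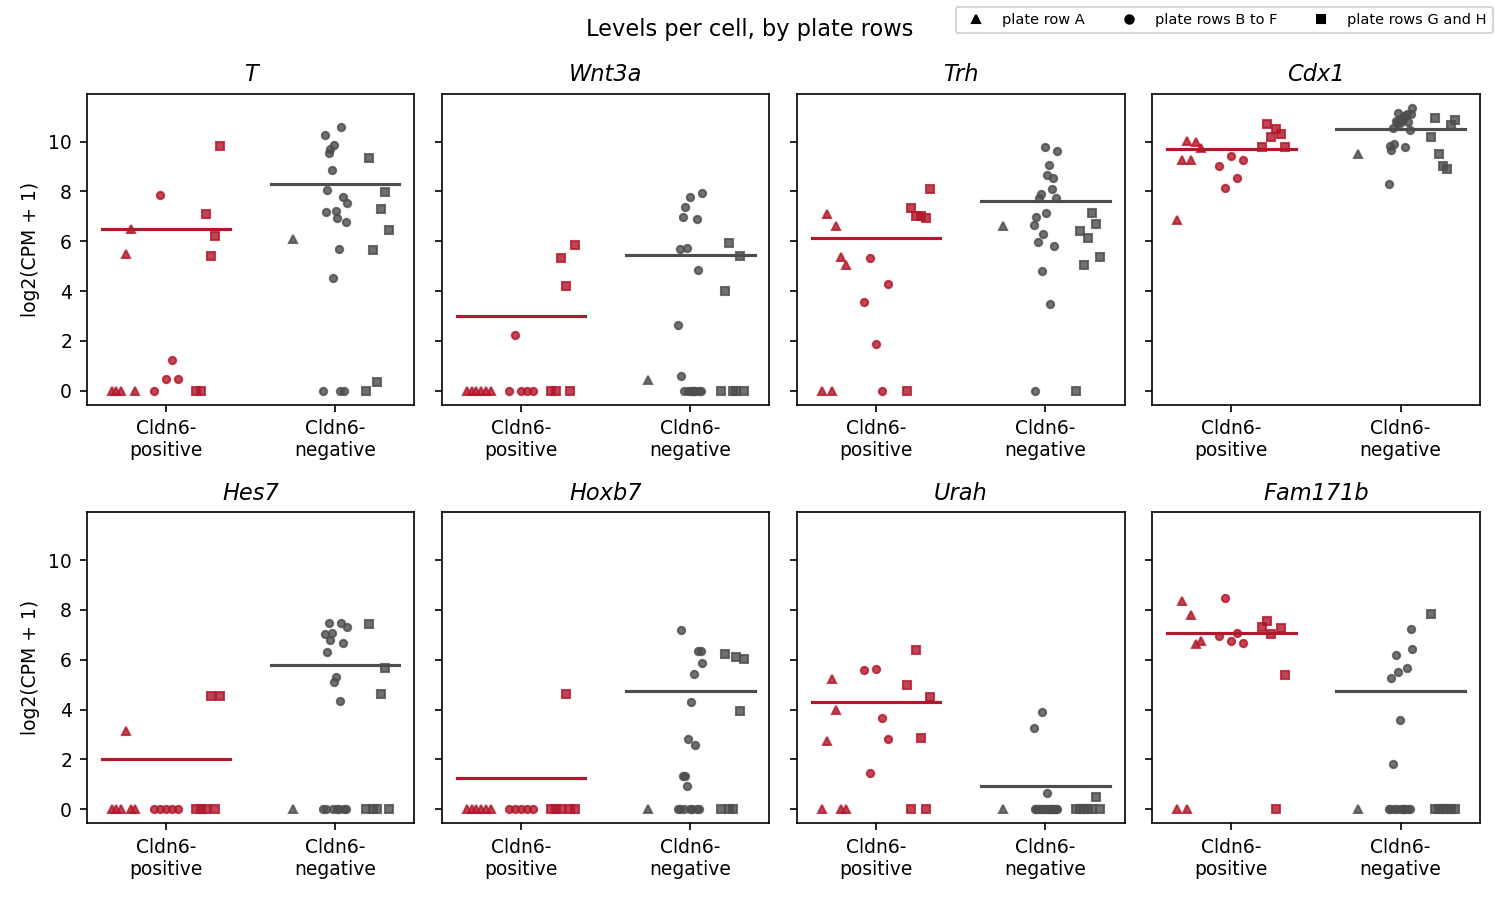
Levels of 8 genes in each cell, log2(CPM + 1), for 17 Cldn6-positive cells (left in each panel) and 26 Cldn6-negative cells (right), with triangles for plate row A, circles for rows B to F, squares for rows G and H, and lines at log2 of the mean CPM plus 1. T, Wnt3a, Trh and Cdx1 differ mainly among the circles, and Urah and Fam171b are higher in positive cells among circles and squares.

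Hox genes sit in clusters and are turned on in the order of their paralog number, with low numbers first and in more anterior tissue. Of 38 Hox genes examined, 10 passed the filter, 20 had no read in any epiblast-like cell, and 8 were read in fewer than 10 cells. Of the 10, 0 were higher and 7 were lower (Hoxa3, Hoxb3, Hoxb4, Hoxc4, Hoxa5, Hoxb7 and Hoxb8), where 6.79% of all genes were lower. The median log2 ratio of the 10 was -1.29. Each of the 7 had most of its cells with a read among the negative cells. Most of them thus passed the filter largely through the group in which they were higher, and the count and the median lend no support by themselves. The 7 genes were among the 8 measured genes of paralog group 3 or above, and Hoxb5 was the other, with a read in 5 of 17 positive and 6 of 26 negative cells and a log2 ratio of -0.10. Hoxb1 and Hoxb2 were under 2-fold. Over all 38 Hox genes, a positive cell had a read of 2 to 8 with a median of 4, and a negative cell of 2 to 13 with a median of 7, while the number of all genes with a read was alike. The groups overlapped. In rows B to F the medians were 3 Hox genes in positive and 7.5 in negative cells, and in rows G and H they were 4 in positive and 6 in negative cells.

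Hoxb1 was read in every cell and averaged 154 ± 95.4 CPM in positive cells and 230 ± 130 CPM in negative cells. Its log2 ratio of -0.57 is under 2-fold, and the groups overlapped. Hoxb2 had a log2 ratio of -0.96, and it was past 2-fold without cell H8 (-1.29), A8 (-1.05) or A4 (-1.01).

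The 7 lower Hox genes were read in a smaller share of positive cells, and their mean levels differed by a larger factor than these shares. Hoxb7 had a read in the positive cell G10 alone, with 23.7 CPM, and in 15 of 26 negative cells with up to 145 CPM. For Hoxb7 the log2 ratio was -3.47 over all cells, -4.67 in rows B to F and -2.71 in rows G and H. Hoxa5 was at most 23.004 CPM with a median of 0 in positive cells and reached 157 CPM with a median of 17.3 CPM in negative cells, with a read in 6 of 17 and 18 of 26. Its mean was 2.50 CPM in positive cells and 26.9 CPM in negative cells. Its log2 ratio was -2.99 over all cells, -4.47 in rows B to F and -2.12 in rows G and H. In rows G and H it was read in 4 of 6 positive and 5 of 7 negative cells, with 157 CPM in the negative cell H5. Hoxb7 and Hoxa5 were named for being lower over these same cells, so their sign within the rows was largely fixed by the choice.

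Hoxb4 had a median of 1.59 CPM in positive cells and 28.4 CPM in negative cells, with a read in 10 of 17 and 24 of 26, and a log2 ratio of -1.54. In rows G and H its log2 ratio was 0.04, so the difference of Hoxb4 stood only in rows B to F of the 2 sets. Hoxa3, Hoxb3, Hoxc4 and Hoxb8 were low and were read in 1 to 3 positive cells and in 8 to 11 negative cells each. Hoxb8 lost its call without the negative cell G8 (-0.67). Hoxb9 and Hoxb6, under the filter, had no read in the positive cells, which allows a share of up to 19.5% for each, and were read in 7 and 4 of 26 negative cells. With every cell thinned to 500000 counts, 4 of the 10 Hox genes stayed 2-fold lower, and with at least 20 cells with a read required, 2 of the 4 that were left did.

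Hoxaas3, an antisense RNA of the HoxA cluster, had 0 to 38.5 CPM with a median of 0 in positive cells and 0 to 155 CPM with a median of 11.8 CPM in negative cells. A read was found in 4 of 17 positive and 20 of 26 negative cells, and the log2 ratio was -3.16, with -5.45 in rows B to F and -1.31 in rows G and H. Its exons overlap by 297 bases those of Hoxa3 and by 586 bases those of Hoxa7 on the other strand, and Hoxa7 had no read. Hoxb3 overlaps Hoxb3os in 2250 of its 4251 exonic bases, so that its few reads cannot be assigned to a strand.

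**Figure D4:**
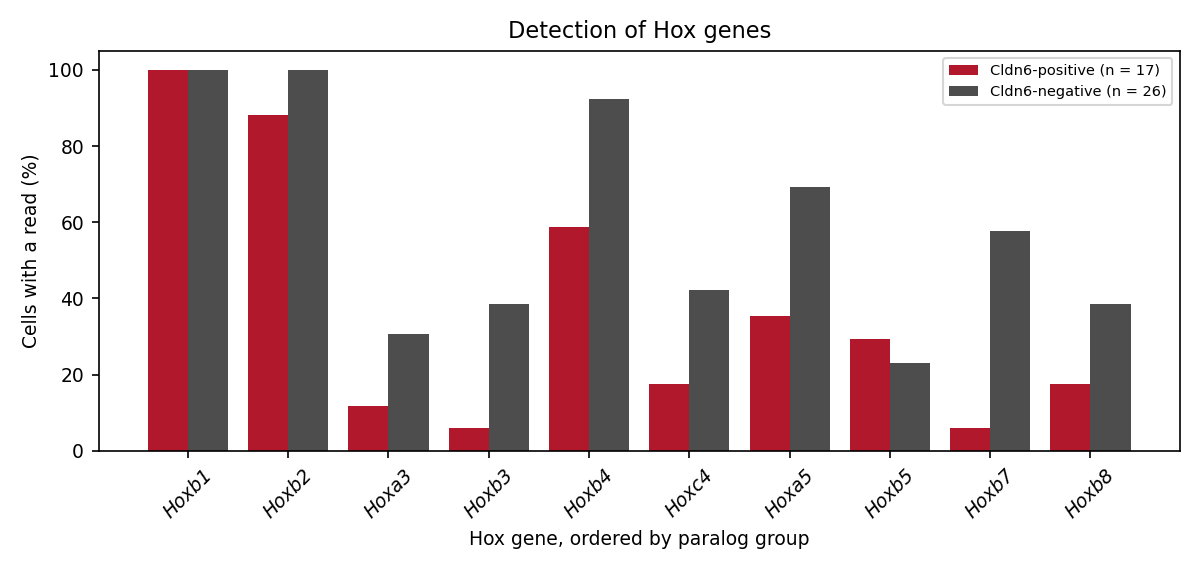
Share of 17 Cldn6-positive cells (left bars) and 26 Cldn6-negative cells (right bars) with a read of each of 10 measured Hox genes, in percent, ordered by paralog group. Hoxb1 was read in every cell, and Hoxb7 in 5.88% of positive and 57.7% of negative cells.

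Retinoic acid, made in the mesoderm, is broken down in the caudal epiblast by Cyp26a1. Of 9 measured genes of this pathway, 0 were higher and 4 were lower (Cyp26a1, Stra6, Rara and Rxrb), where 6.79% of all genes were lower. The median log2 ratio was -0.76. With a read required in 20 cells, 1 of the 5 genes left was 2-fold lower, where 3.7% of all genes were. In rows G and H, 2 genes of the list and 12.2% of all genes were lower, and the median of the list was 0.29. The count and the median lend no support by themselves. Cyp26a1 was read in 3 of 17 positive cells with up to 72.3 CPM and in 8 of 26 negative cells with up to 497 CPM. Its log2 ratio of -1.98 was -1.21 without the negative cell D5 and 0.99 in rows G and H. Rara, a retinoic acid receptor, had medians of 0 CPM in positive and 8.92 CPM in negative cells and a log2 ratio of -1.27, with -1.49 in rows B to F and -1.75 in rows G and H. Rxrb, a partner of these receptors, lost its call without the negative cell C10 (-0.87), and the log2 ratio of -1.59 for Stra6, which takes up retinol, was -2.50 without the positive cell A9.

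In the BMP and Nodal list, 1 of 17 genes was higher (Id2) and 1 was lower (Smad1), with a median of -0.12. These counts are near the 4.1% and 6.79% of all genes that were higher and lower. Id2, an inhibitor of basic helix-loop-helix factors that BMP induces, had 0 to 557 CPM with a median of 103 CPM in positive cells and 0 to 185 CPM with a median of 2.47 CPM in negative cells. In 5 positive cells it was above every negative cell. Its log2 ratio of 2.13 was 3.17 in rows B to F and 0.72 in rows G and H. Its relatives Id1 and Id3 had log2 ratios of -0.13 and 0.17. Smad1, a mediator of BMP signals, was at most 4.94 CPM in positive cells and reached 104 CPM in negative cells, with 12 negative cells above every positive cell. A read of Smad1 was found in 10 of 17 positive and 16 of 26 negative cells, so its level and not its detection differed. For Smad1 the log2 ratio was -3.41 over all cells, -3.50 in rows B to F and -3.76 in rows G and H. Tgfbr1, a receptor of the TGF-β family, averaged 51.7 ± 85.5 CPM in positive cells and 71.003 ± 92.0 CPM in negative cells.

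The genes with the largest ratios, Id2 among them, were not chosen from the lists. Of the genes past 2-fold with each cell left out, read by 50% or more of the higher group and averaging 10 CPM or more in it, the 12 with the largest ratios were Pdzrn3, Urah, Ccdc138, Stk17b, Smarcal1, Zfp84, Castor2, Med26, Ubxn7, Fam171b, Id2 and D3Ertd254e, with log2 ratios between 3.41 and 2.12. All 12 were 2-fold higher in rows B to F, against 8.03% of all genes, and 10 were in rows G and H, against 13%, the exceptions being Id2 and D3Ertd254e. The 12 were chosen over these same cells, so their direction within the rows was largely fixed by the choice. Pdzrn3, a ubiquitin ligase with PDZ domains, had 0 to 160 CPM with a median of 45.3 CPM in positive cells. In negative cells it had 0 to 53.4 CPM with a median of 0, and 7 positive cells were above all of them. Urah, an enzyme of urate breakdown, was read in 12 of 17 positive cells with up to 83.2 CPM and in 4 of 26 negative cells with up to 13.8 CPM. The log2 ratio of Urah was 3.37 over all cells, 3.41 in rows B to F and 4.55 in rows G and H. Fam171b, a membrane protein, was read in 14 of 17 positive cells and 9 of 26 negative cells, with medians of 121 CPM in positive and 0 CPM in negative cells.

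Smarcal1, which remodels stalled replication forks, averaged 35.1 ± 44.4 CPM in positive cells and 5.43 ± 14.2 CPM in negative cells. Med26, a Mediator subunit, averaged 23.02 ± 27.2 CPM in positive and 3.57 ± 12.1 CPM in negative cells, and was read in 10 of 17 and 3 of 26. Outside the 12, Efnb2, the ligand ephrin-B2, was read in 16 of 17 positive and 14 of 26 negative cells, with medians of 58.9 CPM in positive and 1.40 CPM in negative cells. Its log2 ratio was 1.93 over all cells, 2.49 in rows B to F and 1.11 in rows G and H.

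The 12 genes lowest in Cldn6-positive cells by the same rule were Ttc28, Hes7, Arg1, Hoxb7, Smad1, Wdfy2, Zfp873, Msra, Hoxaas3, Klhl22, Dock6 and Zfp959, with log2 ratios between -4.11 and -3.07. They too were chosen over all these cells, and 12 were 2-fold lower in rows B to F, against 16.7% of all genes, and 10 in rows G and H, against 12.2%, the exceptions being Arg1 and Zfp959. Ttc28, a protein with tetratricopeptide repeats, was at most 3.95 CPM in positive cells and reached 111 CPM in negative cells, with 12 negative cells above every positive cell. Dock6, an exchange factor for the GTPases Rac1 and Cdc42, had medians of 0 CPM in positive and 27.4 CPM in negative cells, and 14 negative cells were above every positive cell. Msra, which repairs oxidised methionine, was read in 2 of 17 positive and 14 of 26 negative cells. Arg1 (arginase) averaged 2.52 ± 5.76 CPM in positive cells and 46.3 ± 99.0 CPM in negative cells, against 443 ± 346 CPM in mesoderm-like cells.

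**Figure D5:**
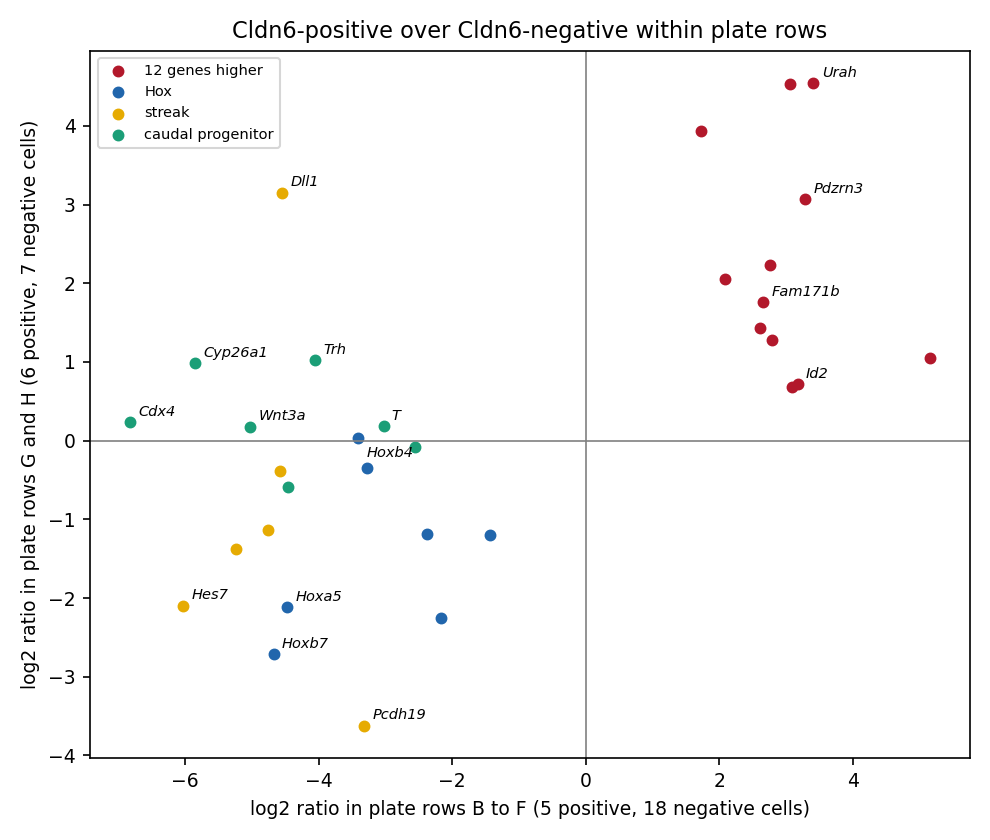
Log2 ratio of mean CPM plus 1 in Cldn6-positive over Cldn6-negative cells within plate rows B to F (horizontal, 5 and 18 cells) and within rows G and H (vertical, 6 and 7 cells), for the 12 genes with the largest ratios and for the lower Hox, streak and caudal progenitor genes. The 12 higher genes lie above 0 on both axes, most Hox genes lie below 0 on both, and the caudal progenitor genes lie far below 0 in rows B to F and between -0.59 and 1.02 in rows G and H.

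Most markers of other cell types had few reads or none in both groups. Of 17 endoderm markers, 11 had no read in any epiblast-like cell, Sox17, Foxa2 and Afp among them, and 1 passed the filter. The summed level of that list was 0 to 108 CPM in positive cells and 0 to 138 CPM in negative cells. Of 7 node and notochord markers, 5 had no read, Noto, Shh and Chrd among them, and the sums were 0 to 218 CPM in positive cells and 0 to 59.3 CPM in negative cells. Of 9 surface ectoderm markers, 3 had no read (Krt5, Krt14 and Trp63). Dlx5, the member of that list that passed the filter, had a log2 ratio of 1.35, which was 0.56 without the positive cell G9, the cell with a single Cldn6 read. Dlx3, under the filter, was read in 6 of 17 positive cells with up to 38.1 CPM and in 1 of 26 negative cells with 2.86 CPM, a log2 ratio of 1.92 that was 0.86 at its lowest with single cells left out. Of 13 blood and endothelium markers, 6 had no read, and Lmo2 was lower with a log2 ratio of -1.54, which was -0.71 without the negative cell B10. Of 6 germ cell markers, 4 had no read, and the sum of the list was 0 to 93.9 CPM with a median of 19.4 CPM in positive cells and 0 to 109 CPM with a median of 0.769 CPM in negative cells. Most of it was Ifitm3, with a log2 ratio of 0.81 over all cells, 1.47 without the negative cell G8, 1.64 in rows B to F and -1.31 in rows G and H. The part of these markers in the other results was not tested. Neural markers were read at 0 to 80.2 CPM in sum in positive cells and 0 to 134 CPM in negative cells, with Sox3 at 12.01 ± 14.4 CPM in positive cells and 10.3 ± 12.9 CPM in negative cells.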

How the data were processed

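The authors aligned Smart-seq2 reads of each cell to GRCm38 (mm10) with HISAT2 and counted them per gene with featureCounts, and the deposited values are these raw counts for 53379 genes in 91 cells. The sources used here give no tool version, annotation or strand setting. Symbols were matched for 53274 identifiers, and coordinates and exon overlaps come from GENCODE annotation of GRCm38. No ERCC spike-in rows were found, so the planned spike-in share was not computed. Totals of the 91 cells were 709866 to 4439571 counts. FACS put 1 cell in a well, no doublet caller was run, and no pair of cells was identical.

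Counts were scaled to CPM in Python 3.11.15 with numpy 2.4.6, pandas 2.3.3 and scipy 1.17.1. Genes with a read in at least 10 of the 43 epiblast-like cells were kept and called at 2-fold on mean CPM with a pseudocount of 1 CPM. No p-value is given, since no embryo is named. Shares carry exact Clopper-Pearson intervals of 95% confidence, which cover counting error only, since Smart-seq2 reads are not independent molecules. A count of 0 was read as an upper limit of 3 reads. The steps were run on simulated counts with known folds, which checked the median ratio of changed genes. This run did not check the 2-fold calls of single genes.

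The members and gene lists were chosen with earlier results of these data known. Genes named are the 12 largest in each direction read by 50% or more of the higher group, with a mean of 10 CPM or more there and the call kept with each cell left out, up to 4 such genes of each list, all claudin genes with a read, a set of axial and junction genes named in any case, and the most often read markers of other cell types. Members named because 5 or fewer were called, further Hox, Id, streak and sex-linked genes, Efnb2, Sp8, Krt8, Evx1, Msgn1 and Cldn9 were chosen after their values were seen. The alternatives tried were size factors, another pseudocount, filters, Cldn6 thresholds, thinning, deeper and shallower cells apart, a stricter class rule, mean log2 levels and leaving out each cell. One gene is not reported here.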

Additional observations from a re-analysis of the deposited data

How the results depend on the processing

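The alternatives by plate row and by single cells (D7, or B10 and C10) were chosen after seeing the data. Counts of higher and lower genes, 463 and 767 here, were 161 and 251 with a pseudocount of 10 CPM, 1630 and 2149 without a filter (20739 genes), 168 and 303 with a read required in 20 cells, 907 and 1880 in plate rows B to F and 1470 and 1376 in rows G and H. Cells with a total at or above the median gave 976 higher, cells below it 911 higher and 1553 lower, and a difference of mean log2(CPM + 1) gave 744 higher. With each cell left out in turn there were 445 to 489 higher and 746 to 852 lower genes. Size factors, a minimum of 5 Cldn6 reads or 10 CPM, thinning and the stricter class rule kept both counts within 1.5 times. The genes behind the counts changed more. With at least 10 CPM of Cldn6, 314 of the 463 higher and 515 of the 767 lower genes were called again. After thinning 368 and 627 were, and with mean log2 levels 273 and 408 were.

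The number of Hox genes 2-fold lower, 7 here, was 3 with a pseudocount of 10 CPM, 11 without a filter, 2 with a read in 20 cells, 4 after thinning and 6 to 8 with each cell left out. That of streak genes, 7 here, was 12 without a filter, 1 with a read in 20 cells, 4 in rows G and H and 7 to 7 with each cell left out. That of caudal progenitor genes, 7 here, was 4 with a read in 20 cells, 3 in the cells with a total at or above the median, 11 in rows B to F, 0 in rows G and H and 7 to 7 with each cell left out.

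Of 73 named genes called, 15 changed sign in rows G and H. Their log2 ratios there were 0.47 for Aldh1a2, 0.22 for Arg1, 0.24 for Cdx4, 0.99 for Cyp26a1, 3.15 for Dll1, -3.63 for Fgfr2, 0.036 for Hoxb4, -1.20 for Kdm5d, 0.079 for Krt18, 0.61 for Llgl1, 2.85 for Lmo2, 0.19 for T, 1.02 for Trh, 0.18 for Wnt3a and 0.31 for Zfp959. In rows B to F, Cldn5 (-0.41) and Pard6g (-0.16) did. Dlx5 was -0.20 with at least 5 Cldn6 reads, -0.98 with at least 10 CPM and -0.33 after thinning. Hoxb8 (0.010) and Stra6 (0.029) changed sign in the cells with a total at or above the median, and Zfp84 (-0.94) and Aldh1a2 (0.33) in those below it. Aldh1a2, which the rule used, ranged from -4.11 to 0.19 with single cells left out, the last without B10, and was 0.19 with Nkx1-2 required at 10 times Aldh1a2, and 0.18 without B10 and C10. Apart from Aldh1a2 and B10, the cause of these changes was not tested. No paired analysis was possible because no label pairs the cells.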

Other observations

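Few genes of general cell function were called in this comparison, where 4.1% of all genes were higher and 6.79% lower. Of 85 ribosomal protein genes, 0 were 2-fold higher or lower in Cldn6-positive cells, with a median log2 ratio of -0.12. Of 18 glycolysis genes, 0 were called, and their summed level had a median of 17450 CPM in positive cells and 20850 CPM in negative cells. All 13 genes encoded in the mitochondrial genome were under 2-fold, with a median log2 ratio of 0.31. Of 23 genes of G2 and mitosis, 0 were called, and of 18 S phase genes 1 was higher, Cdc6, which loads the replicative helicase. Cdc6 had medians of 214 CPM in positive and 63.1 CPM in negative cells, and 16 of 17 positive cells were above the median of the negative cells. Its log2 ratio was 1.10, with 0.93 in rows B to F, 1.13 in rows G and H, 0.94 without cell A1 and 0.95 without cell G2.

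Of 4 measured immediate early genes, 2 were lower (Dusp1 and Egr1), where 6.79% of all genes were lower. Each lost its call without 1 negative cell, Dusp1 without F7 (-0.91) and Egr1 without E5 (-0.68). Of 15 pluripotency genes, 1 was lower (Zic2, at most 3.46 CPM in positive and 14.5 CPM in negative cells), a share near the 6.79% of all genes that were lower, and the call for Zic2 was lost without the negative cell E5 (-0.98) or G8 (-0.91). Nanog averaged 23.2 ± 30.1 CPM in positive cells and 13.6 ± 26.6 CPM in negative cells. Both groups held cells with transcripts of the Y chromosome and cells with Xist: the summed level of Ddx3y, Eif2s3y, Kdm5d and Uty was at least 10 CPM in 11 of 17 positive and 21 of 26 negative cells, and Xist was at least 10 CPM in 2 positive cells and 1 negative cell.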
